A study of Arabidopsis thaliana with 10 samples.

Results

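Leaves of ageing NahG plants were compared with green leaves of the wild type, using 4 of the 10 arrays of a study of leaf senescence in Arabidopsis thaliana. The 2 NahG arrays came from NahG transgenic plants in the Columbia background at growth stage 6.0. The 2 green arrays came from untransformed wild type at stage 3.9, 1 of Col-0 (stock N933) and 1 of Col-5 (stock N1644). In the growth scale commonly used for this plant, stage 3.9 is the fully grown rosette and stage 6.0 the opening of the first flower. All plants grew in compost in a growth room at 18 °C with a 12 h day and received no treatment, and fully expanded leaves were taken. The arrays were chosen by these labels and not by any measured value. The other arrays of the study were wild type, ein2 and coi1 at stage 6.0, 2 of each.

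Salicylic acid is a plant hormone of defence against biotrophic pathogens, and its level rises as leaves age. The NahG transgene encodes a bacterial salicylate hydroxylase that turns salicylic acid into catechol, so the plants accumulate little of it. A senescing leaf dismantles its chloroplasts, breaks down chlorophyll and protein and exports the released nitrogen and sugars, and salicylic acid, jasmonate and ethylene each influence this programme. The comparison asks which changes of ageing still occur where salicylate is degraded. No green NahG leaf was measured, so the effects of stage and of the transgene cannot be told apart in it. The stage 6.0 wild type arrays took no part in the comparison and stand beside it below, with a separate fit for the difference between NahG and wild type at stage 6.0.

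Some limits of the material apply throughout. The stock, the promoter that drives NahG and the number of transgenic lines are not given in the sources used here, and the transgene has no probe set named here. Nothing in the labels ties the arrays of a group to separate plants. The p-values therefore reflect spread among the arrays measured, part or all of which may be technical, and for the wild type they include any difference between the lines. One of the ageing wild type arrays carries stock N1644 but is called Col-0 in another label. In RNA of whole leaves, fewer cells of a type and less RNA per cell cannot be told apart. The 4 leaf markers named on the array (RCA, LHCB4.1, LHCB4.2 and LHCB4.3) had signals from 108.5 to 5912 on the 4 arrays. Markers of flower, trichome, vascular tissue, pollen and dividing cells have no named probe set, and the guard cell gene FMA and the root gene EXPA7 were below the signal filter.

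Signals are on a linear scale in which the trimmed mean of each array is 100, and between 9936 and 10410 of its probe sets reached 50 on each of the 4 arrays. Signals correlated across probe sets at r = 0.966 between the NahG arrays and 0.94 between the green arrays, against 0.744 to 0.765 between the groups, on the log2 scale. The first principal component of all 10 arrays set the green arrays apart and the second set the NahG arrays apart, with 51.5% and 21% of the variance. The hybridisation controls, which are spiked in equal amounts, had geometric mean signals of 437.9 and 408.8 on the green arrays and 295.3 and 228.1 on the NahG arrays. The 3' to 5' ratio of the actin control was 5.09 and 4.09 on the green arrays and 6.70 and 5.82 on the NahG arrays. That of ubiquitin was 2.97 and 2.53 against 2.15 and 2.22, so these measures of RNA integrity moved in opposite directions. Their part in the results was not tested.

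Of the 22746 probe sets that are not controls, 11972 reached a signal of 50 on at least 2 of 8 arrays and were tested. At an adjusted p under 0.05 in limma, 1896 probe sets were higher in ageing NahG than in green wild type leaves, 15.8% of those tested. Another 1879 were lower, 15.7% of those tested, and 8197 did not pass. Differences of at least 2-fold were called for 1032 probe sets upwards and 1028 downwards, and of at least 8-fold for 92 and 59. Scaled to the hybridisation controls the median of all probe sets moved from 0.019 to 0.605 on the log2 scale, and 1843 rose and 260 fell, so the even split of rises and falls holds only relative to the average transcript. Rises and falls below are relative to that average. One gene was named for 6327 of the tested probe sets. These gave 6291 genes, of which 918 rose and 931 fell.

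**Figure D1:**
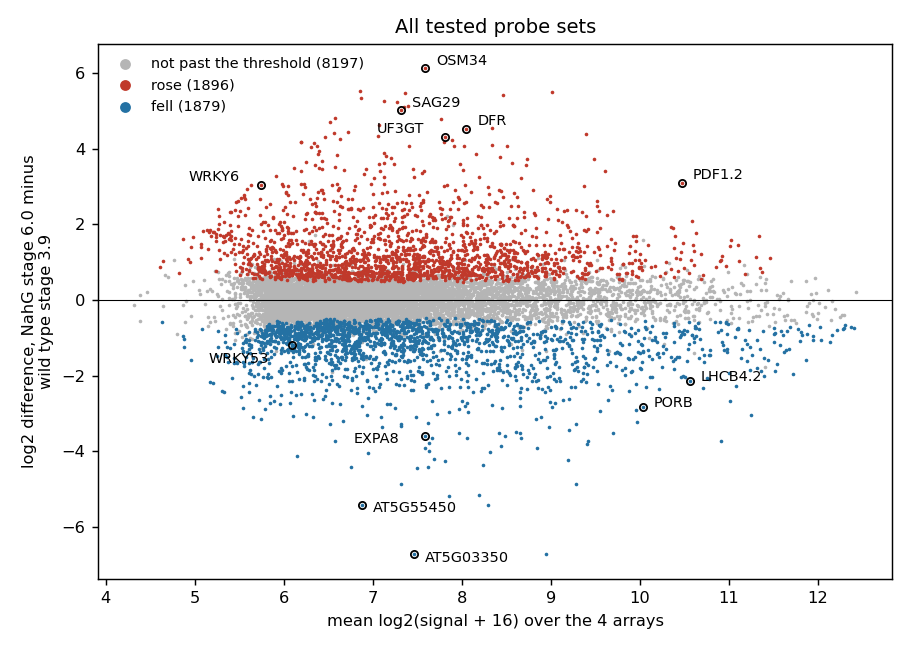
Each point is 1 tested probe set, with its mean log2(signal + 16) over the 4 arrays on the x axis and its log2 difference, NahG stage 6.0 minus wild type stage 3.9, on the y axis. Red points rose (1896), blue points fell (1879) and grey points did not pass (8197), and 12 genes described in the text are circled, with OSM34 at the top and AT5G03350 near the bottom.

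Among genes with a symbol, a stress protein, a sugar transporter and enzymes that make the red pigments of ageing leaves rose steeply. OSM34, an osmotin of the thaumatin-like family of pathogenesis-related proteins, had signals of 1682 and 1507 in NahG against 15.8 and 0.705 in green leaves. Its log2 difference was 6.12 ± 0.31 (SE; limma adjusted p = 8.93e-07). Differences are on the scale of log2(signal + 16), which understates the change of genes with low signals. The ageing wild type arrays reached only 209 and 250.3 for OSM34, and NahG exceeded them by 2.72 ± 0.30 (limma adjusted p = 0.000267, or 0.0542 with 1 added before taking logs). The ein2 arrays stood at 62.7 and 81.2 and the coi1 arrays at 35.5 and 65.8, so the NahG arrays were the highest of the study for this gene. SAG29, a sugar transporter of the SWEET family known as a marker of senescence, had 993.5 and 793.9 in NahG against 8.68 and 15.9 in green leaves, a difference of 5.01 ± 0.20 (limma adjusted p = 4.93e-07). Ageing wild type had 851.6 and 166.1, a range that overlapped the NahG signals, and the difference between the genotypes did not pass (1.19 ± 0.52; limma adjusted p = 0.202).

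Genes known only by a locus code were also among the most changed. No role is given for them, because the annotation used here holds none. AT5G39520 rose by 5.42 ± 0.25 and AT3G61930 by 5.33 ± 0.32, and neither differed past the threshold between NahG and wild type at stage 6.0 (0.19 and -0.30). AT1G05340 rose by 5.12 ± 0.39, from 29.1 and 1.92 to 994.8 and 958.4, and the size of its change was 5.79 without the Col-0 array and 4.46 without the Col-5 array. The largest decrease of a probe set that names 1 gene was that of AT5G03350, from 2460 and 1325 in green leaves to 1.51 and 0.906 in NahG (-6.73 ± 0.31; limma adjusted p = 5.79e-07). AT5G55450 followed at -5.42 ± 0.36 and AT2G10940 at -5.19 ± 0.23. The last pair differed in ageing wild type. AT5G55450 was at 495.4 and 338.4 there, whereas AT2G10940 was at 24.8 and 13.0, as low as the 26.4 and 18.6 of NahG. AT2G10940 passed the signal filter only through the green arrays, so its entry into the test already required a high green signal. AT2G41090 dropped from 3224 and 3479 to 59.2 and 159.4, a difference of -4.87 that became -4.26 without NahG array 1 and -5.48 without array 2.

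Photosynthesis genes were lower in ageing NahG leaves, as a group with no exception among the 7 named photosystem and light harvesting genes, all of them tested. All 7 fell, against 15.7% of all tested probe sets, with a median log2 difference of -1.45 against 0.019 over all probe sets. PSAN, a subunit of photosystem I, had signals of 4817 and 3481 in green wild type and 1357 and 1303 in NahG (-1.61 ± 0.21; limma adjusted p = 0.00029). The ageing wild type was lower still, at 431.7 and 448.9, and NahG exceeded it by 1.56 (limma adjusted p = 0.000683). The level of PSAN in NahG therefore lay between green and ageing wild type without overlap. LHCB4.2, which encodes an antenna protein of photosystem II, had the same order, with 4915 and 2050 in green leaves, 701.1 and 701.6 in NahG and 239 and 303.5 in ageing wild type. Its decrease was -2.15 ± 0.34 (limma adjusted p = 0.000822), or -1.53 without the Col-0 array and -2.78 without the Col-5 array. NahG exceeded ageing wild type by 1.33 for LHCB4.2 (limma adjusted p = 0.0303), a call lost on leaving out any 1 array of these groups (adjusted p from 0.0706 to 0.161). The third member of the family went the other way. LHCB4.3 stood at 108.5 and 119.6 in NahG, below the 237.1 and 288.4 of ageing wild type and the 654.8 and 1307 of green leaves. Its difference from ageing wild type was -1.10 (limma adjusted p = 0.0303), also lost without any 1 array (adjusted p from 0.0648 to 0.181). Scaled to the hybridisation controls the list kept its direction, with a median of -0.75, but 2 of the 7 genes passed and PSAN did not (-0.91; limma adjusted p = 0.101).

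Carbon fixation and the making of chlorophyll showed the same direction. SBPASE and PRK, enzymes that regenerate the carbon dioxide acceptor in the Calvin cycle, fell by 1.64 and 1.37, and RCA, the activase of Rubisco, fell by 0.87. The call for RCA was lost without the Col-0 array or either NahG array (limma adjusted p from 0.0514 to 0.101). HPR, the hydroxypyruvate reductase of photorespiration, fell by 1.07. In NahG and ageing wild type these 4 genes had much the same signals, for example 931.9 and 943.3 against 954.6 and 1233 for SBPASE, and no difference passed. Of 11 named genes of tetrapyrrole and chlorophyll synthesis 8 were tested, and 7 fell, against 15.7% of all tested probe sets. PORB, the light-dependent reductase that forms chlorophyllide, went from 3533 and 2189 to 433.5 and 323.7, a difference of -2.84 ± 0.26 (limma adjusted p = 3.06e-05). CHLM, a methyltransferase of the magnesium branch, fell by 2.05. CHLI2, a subunit of magnesium chelatase, fell by 2.58. The size for CHLI2 was -1.95 without NahG array 1 and -3.22 without NahG array 2, whose signals were 16.5 and 62.7. HEME1 and HEME2, which encode uroporphyrinogen decarboxylases, fell by 1.93 and 1.66. HEMA2, an isoform of glutamyl-tRNA reductase at the start of the pathway, did not pass (0.20). NOL, a chlorophyll b reductase and the 1 named gene of chlorophyll breakdown, did not pass either, with 198.7 and 227.8 in NahG against 188.3 and 169.1 in green leaves. Scaled to the hybridisation controls, none of the 3 Calvin cycle genes nor HPR passed, and 4 of the chlorophyll synthesis genes fell.

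Many transcripts of the plastid genome were also lower, and the arrays of both stage 6.0 groups differed for a part of them. Of 69 plastid genes, all tested, 35 fell and 0 rose, against 15.7% and 15.8% of all tested probe sets. The median difference was -0.81. By role, 13 of 33 genes of photosynthetic complexes fell, 4 of 10 genes of the NDH complex and 18 of 26 genes of the ribosome, the plastid polymerase and other functions. NahG array 1 exceeded array 2 more than 2-fold for 16 plastid genes and array 2 exceeded array 1 for 2, while the green arrays never differed by so much. The ageing wild type arrays differed more than 2-fold for 30. The rpoB gene of the plastid polymerase had 520.1 and 428.3 in green leaves, 126.5 and 49.4 in NahG and 10.5 and 596.1 in ageing wild type, so that the ageing wild type arrays spanned all the others. Without NahG array 2 only 2, 0 and 7 genes of these 3 roles fell. Without NahG array 1 the counts were 8, 5 and 13, and without the Col-0 array 6, 0 and 14. The rbcL gene of the large Rubisco subunit, with 1925 and 1321 in green leaves and 715.1 and 397.8 in NahG, fell by 1.55 ± 0.32 (limma adjusted p = 0.00457, or 0.0529 without NahG array 2). Scaled to the hybridisation controls 3, 0 and 2 genes of these roles fell, and the medians were -0.05, -0.16 and -0.32.

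Genes of autophagy and of vacuolar proteolysis were higher in ageing NahG leaves. Autophagy encloses cell contents in membranes for breakdown in the vacuole, and ATG8 proteins coat these membranes. Of 10 named autophagy genes, all tested, 9 rose, against 15.8% of all probe sets, with a median of 0.87. ATG8B had 407.5 and 429.7 in NahG against 82.0 and 76.8 in green leaves, a difference of 2.19 ± 0.27 (limma adjusted p = 0.000183). ATG8H rose by 1.81, APG8A by 1.76 and ATG3, the enzyme that attaches the lipid anchor to ATG8, by 0.59. ATG8F, at -0.15, was the 1 member that did not pass. No autophagy gene differed past the threshold between NahG and wild type at stage 6.0, where ATG8B had 477 and 345. The count of 9 was 4 without the Col-5 array and 3 without NahG array 2, and 6 without either other array. Vacuolar processing enzymes are cysteine proteases that mature and degrade proteins of the vacuole. All 3 tested genes of this family rose, of 4 named: ALPHA-VPE from 6.36 and 3.33 to 86.0 and 75.1 (2.21 ± 0.29; limma adjusted p = 0.000298), BETA-VPE by 1.89 and GAMMA-VPE by 1.70. ALPHA-VPE passed the signal filter only through the NahG arrays, so its entry into the test already required a high NahG signal, and without either NahG array 2 genes were tested and 2 rose. GAMMA-VPE was abundant, at 4765 and 4554 in NahG, 1211 and 1675 in green leaves and 4152 and 4873 in ageing wild type.

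Genes that carry nitrogen, carbon and sugars out of the leaf rose in part. PPDK, whose product makes carbon skeletons for the transport of amino acids in senescing leaves, went from 274.6 and 165 to 573.5 and 547.1 (1.33 ± 0.23; limma adjusted p = 0.00162). AIM1, an enzyme of fatty acid beta-oxidation, rose by 0.88. NRT2.5, a high-affinity nitrate transporter, rose by 0.77 to 41.3 and 41.8, a call lost without the Col-0 array (limma adjusted p = 0.0546). It remained below the 99.1 and 169.1 of ageing wild type (-1.34; limma adjusted p = 0.00374). Of 18 named sugar transporters of the SWEET and TMT families 11 were tested, and 5 rose, or 3 without NahG array 2. Beside SAG29 these were SWEET14 at 1.30, SWEET4 at 1.0, SWEET13 at 0.79 and SWEET1 at 0.67. The rises were 45.5% of the members tested, against 15.8% over all probe sets. The vacuolar transporters TMT1 and TMT2 did not pass, at 0.01 and 0.44. DELTA-OAT, an ornithine aminotransferase, rose by 2.56 and ALDH7B4, an aldehyde dehydrogenase of stressed leaves, by 2.22, with NahG signals of 1490 and 1382 against 321.3 and 273.6 for ALDH7B4. DELTA-OAT belongs to none of the lists and was taken after the values were seen.

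**Figure D2:**
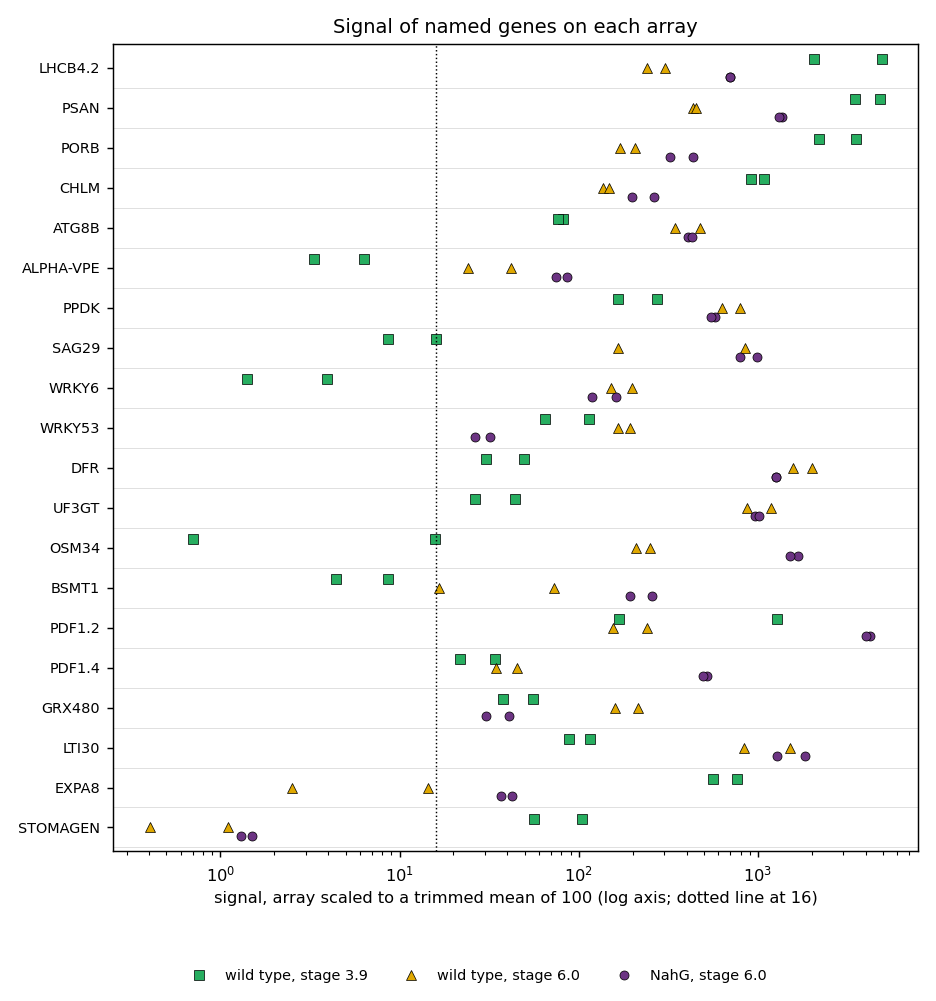
Signals of 20 named genes on each array are shown on a logarithmic axis, with green squares for wild type at stage 3.9, yellow triangles for wild type at stage 6.0 and purple circles for NahG at stage 6.0, 2 arrays each. NahG circles lie with the ageing wild type for ATG8B, PPDK, WRKY6 and UF3GT, beyond it for OSM34, BSMT1 and PDF1.4, and between the other groups for LHCB4.2 and PSAN.

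Genes of anthocyanin synthesis rose strongly. DFR, the dihydroflavonol reductase, had 1259 on both NahG arrays against 30.5 and 49.6 in green leaves, a difference of 4.53 ± 0.21 (limma adjusted p = 5.51e-07). UF3GT, which adds xylose to anthocyanins, had 968.1 and 1008 against 26.2 and 43.8 (4.32 ± 0.23; limma adjusted p = 1.41e-06). AT5MAT, an anthocyanin malonyltransferase that was outside the list and taken after the values were seen, had 93.6 and 91.1 against 2.12 and 1.92 (2.59 ± 0.18). Ageing wild type had 1570 and 2014 for DFR and 865.6 and 1176 for UF3GT, and neither difference from NahG passed (-0.49 and -0.03 on the log2 scale). UGT78D2, which adds glucose to flavonols and anthocyanidins, rose by 1.89 but was lower than in ageing wild type, at 257.4 and 237.5 against 582.1 and 670.4 (-1.28; limma adjusted p = 0.00401). UGT78D1, which adds rhamnose to flavonols, fell by 0.99, a call lost without the Col-5 array or NahG array 1. In all, 3 of 4 tested genes of the 5 named rose and 1 fell, against 15.8% and 15.7% of all tested probe sets.

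Regulators of senescence did not move together. WRKY6, a transcription factor that rises in senescing leaves, had 161.2 and 118 in NahG against 1.41 and 3.93 in green leaves (3.05 ± 0.19; limma adjusted p = 3e-06), close to the 152.2 and 197.9 of ageing wild type. WRKY53, a transcription factor that promotes senescence and responds to salicylic acid, had 26.4 and 32.1 in NahG, below the 113.9 and 65 of green leaves (-1.18 ± 0.24; limma adjusted p = 0.00372, or 0.345 on the scale of the hybridisation controls). The ageing wild type had 193.2 and 166, and NahG was lower by 2.11 on the log2 scale (-2.11; limma adjusted p = 0.000237). The 3 groups did not overlap for WRKY53, and NahG was the lowest. WRKY47 rose by 0.65, a call lost without the Col-5 array or either NahG array, and WRKY20 did not pass (-0.44). SAG101, a partner of EDS1 in defence that was first described from senescence, did not pass, with 42.7 and 49.5 against 64.9 and 37.9. Of the 6 named senescence genes 5 were tested, 2 rose and 1 fell, against 15.8% and 15.7% of all tested probe sets. The 1 fall, 20% of those tested, is near the share of all probe sets and is not read as a result about the list. The median of the 5, at -0.09, was positive with several other settings, among them scaling to the hybridisation controls (0.43), and so has no settled direction.

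Genes tied to salicylic acid itself were few on the array as named here. GRX480, a glutaredoxin induced by salicylic acid, had 40.9 and 30.5 in NahG and 37.7 and 55.8 in green leaves, which overlap, and the difference did not pass (-0.27 ± 0.25; limma adjusted p = 0.451). In ageing wild type it reached 160.3 and 213.5, above both NahG arrays (-1.97; limma adjusted p = 0.000689). UGT76B1 and UGT74F1, glucosyltransferases that act on salicylic acid or related compounds, were below the filter. The usual marker genes PR1, PR2 and PR5 have no probe set named under these symbols here.

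Jasmonate-linked and antimicrobial genes included some of the strongest rises. PDF1.2, a plant defensin used as a marker of joint jasmonate and ethylene signalling, had 4246 and 4021 in NahG. The green arrays had 1277 (Col-0) and 167.1 (Col-5), and the ageing wild type 239.1 and 155.6. The difference from green leaves was 3.09 ± 0.68 (limma adjusted p = 0.00607), and it was 4.50 without the Col-0 array and 1.68 without the Col-5 array. The NahG arrays were above all arrays of both wild type groups, and the difference from ageing wild type was 4.31 (limma adjusted p = 0.00226). PDF1.2b is a near-identical copy whose probe set can bind both transcripts, and its 2.09 ± 0.58 is not an independent measure. Its call was lost without either NahG array (limma adjusted p = 0.0995 and 0.0853), and its size was 3.31 without the Col-0 and 0.87 without the Col-5 array. PDF1.4 had 521.9 and 494.7 in NahG against 34.2 and 21.7 in green leaves (3.59 ± 0.24; limma adjusted p = 4.99e-06) and 45.2 and 34.7 in ageing wild type. THI2.1, a thionin induced by jasmonate, had 159.4 and 127 in NahG and at most 28.3 in either wild type group (1.93 ± 0.27; limma adjusted p = 0.000404).

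JRG21, named as a jasmonate-regulated gene, rose by 4.18 ± 0.32, from 58.3 and 21.0 to 1074 and 814.4. Ageing wild type had 521.7 and 148.2 for JRG21, and the difference from NahG did not pass (1.68 ± 0.48; limma adjusted p = 0.0564). BSMT1, which methylates salicylic and benzoic acid and is induced by jasmonate, had 256.9 and 193.3 in NahG against 8.57 and 4.43 in green leaves (3.41 ± 0.32; limma adjusted p = 3.23e-05). NahG was above the 72.3 and 16.6 of ageing wild type for BSMT1 by 2.15 (limma adjusted p = 0.0111). That call was lost without ageing wild type array 2 or either NahG array (adjusted p from 0.0511 to 0.125), and the size without ageing wild type array 1 was 2.87. The transcription factors MYC3 and MYC4 and the jasmonate synthesis gene OPCL1 did not pass against green leaves (0.31, -0.35 and 0.46). Of 8 named jasmonate genes 6 were tested and 3 rose, and of 15 named defensin and thionin genes 6 were tested, 4 rose and LCR68 fell (-1.5). Over all tested probe sets 15.8% rose and 15.7% fell. The 1 fall (16.7%) is therefore not read as a result about the defensins and thionins. BSMT1 and THI2.1, which is in both lists, passed the signal filter only through the NahG arrays, so these counts of rises are not support for a shift of either list. Leaving out either NahG array brought these counts of rises to 1 and 2, with 4 and 5 genes then passing the signal filter. In the ethylene pathway, EIN3, its central transcription factor, had 376.7 and 361.8 in NahG and 307.5 and 301.9 in green leaves (0.26 ± 0.18; limma adjusted p = 0.307). RTE1, which acts with the receptor ETR1, did not pass either (-0.05).

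**Figure D3:**
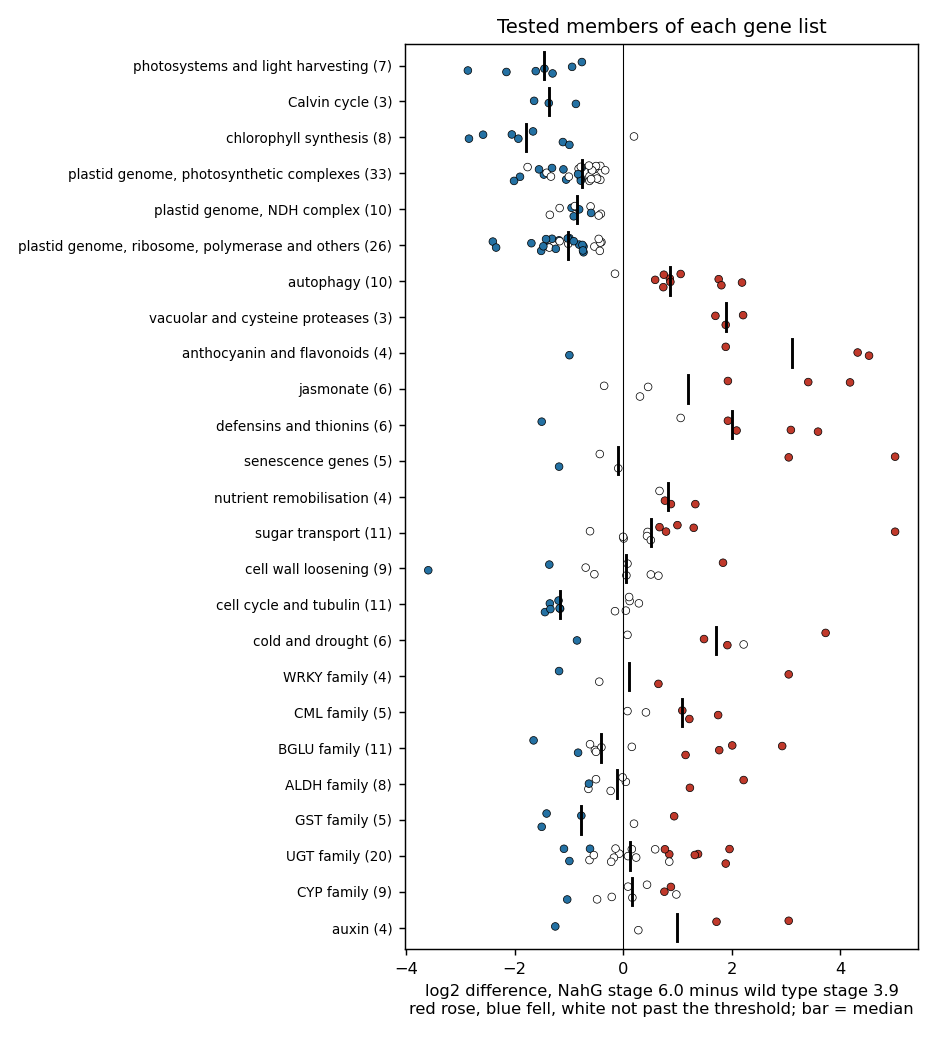
For each gene list with at least 3 tested members (number in brackets), points give the log2 difference of each member, NahG stage 6.0 minus wild type stage 3.9, on the x axis, and the bar gives the median. Red members rose, blue members fell and white members did not pass. Every point of the 3 plastid genome lists lies left of 0 on this scale, where the median of all probe sets is 0.019. The medians of the senescence, BGLU and ALDH lists (-0.09, -0.40 and -0.12) change sign when arrays are scaled to the hybridisation controls.

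Several genes of growth fell in ageing NahG leaves. Expansins and xyloglucan endotransglucosylases loosen cell walls during expansion. EXPA8, an expansin, went from 764.8 and 559.3 in green leaves to 37.0 and 42.3 in NahG (-3.59 ± 0.26; limma adjusted p = 6.91e-06) and lay at 2.52 and 14.4 in ageing wild type. XTH32 fell by 1.36, and EXLA1, an expansin-like gene, rose by 1.84. These were the calls among 9 tested of 28 named cell wall genes, whose median has no settled direction across settings. The shares of 11.1% up and 22.2% down, against 15.8% and 15.7% over all probe sets, are not read as a shift of the list. Among tubulin and histone genes 6 of 11 fell and 0 rose. TUB6 fell by 1.44, TUB5 by 1.35, TUB7 by 1.34, TUB1 by 1.19 and TUA6 by 1.16, and the histone gene HTB2 by 1.17. On the scale of the hybridisation controls 10 were tested, 0 fell and the median was -0.01. STOMAGEN, a peptide that raises stomatal density in young leaves, fell from 56.2 and 104.8 to 1.31 and 1.51 (-2.42 ± 0.33; limma adjusted p = 0.000346). RALFL34, a small signalling peptide, fell by 2.44, and both were taken after the values were seen. EXPA8, HTB2, TUB1 and STOMAGEN passed the signal filter only through the green arrays, so their entry into the test already required a high green signal. Without either green array 4 of 9 tested tubulin and histone genes fell, with 1 rise without the Col-0 array, and 1 of 8 cell wall genes fell, with 2 rises without the Col-0 array.

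Some cold and drought genes and the clock gene GI were higher in NahG. LTI30, a dehydrin, had 1285 and 1827 against 115.1 and 88.6 (3.73 ± 0.22; limma adjusted p = 2.28e-06). COR47, also a dehydrin, rose by 1.92. COR15A, which protects chloroplast membranes from freezing, had 2426 and 2358 in NahG against 507.5 on the Col-0 and 1381 on the Col-5 array. Its difference of 1.49 was 0.79 without the Col-0 array and 2.20 without the Col-5 array, and the call was lost without either NahG array (limma adjusted p = 0.0643 and 0.0591). GI, a clock protein that promotes flowering, had 564 and 435 against 80.7 and 219, a difference of 1.76 that became 1.12 without the Col-0 and 2.40 without the Col-5 array. COR27, with the second largest difference of its list at 2.22, did not pass. No hour of harvest is given in the sources used here, so the part of the time of day in these genes was not tested. Of 9 named cold and drought genes 6 were tested, 3 rose, and HVA22C fell (-0.85) after passing the signal filter only through the green arrays. Over all tested probe sets 15.8% rose and 15.7% fell, and the 1 fall (16.7%) is not read as a result about the list. With any 1 array left out 0 fell. The count of 3 was 5 without the Col-5 array and 2 without either NahG array.

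Large enzyme families were mixed, and their counts stand against 15.8% of all tested probe sets that rose and 15.7% that fell. Of 47 named UGT glycosyltransferases 20 were tested, 6 rose and 3 fell, and UGT87A2 was at 1.96. The rises were 30% of the members tested. The falls were 15%, close to the 15.7% over all probe sets, and are not read as a result about the family. Of 21 named BGLU beta-glucosidases 11 were tested, 4 rose and 2 fell, the falls again a share (18.2%) near that of all probe sets. BGLU46 and BGLU45, which release monolignols from their glucosides, rose by 2.93 and 2.01, and BGLU44 fell by 1.65. PYK10, a beta-glucosidase known from roots and seedlings, had 118.4 and 95.8 in NahG against 20.4 and 19.6 in green and 12.5 and 29.4 in ageing wild type leaves (1.77 ± 0.20; limma adjusted p = 0.000131). BGLU46, PYK10 and BGLU15, which are 3 of the 4 rises, passed the signal filter only through the NahG arrays. The rises in the BGLU family numbered 1 without either NahG array, with 8 members then tested. Of 14 named GST genes 5 were tested, GSTU20, GSTU18 and GSTU27 fell by 1.5, 1.41 and 0.77, and GSTU16 rose by 0.94, a call lost without NahG array 2. Among calmodulin-like proteins CML23, CML41 and CML38 rose by 1.75, 1.22 and 1.09, of 5 tested and 7 named. Without NahG array 2 only 1 of 4 tested rose, and the call for CML41 was lost (limma adjusted p = 0.0523). CML41 stood at 975.2 and 507.6 in ageing wild type against 177.7 and 288 in NahG and 96.4 and 80.4 in green leaves. GH3.3 and GH3.17, which join auxin or related hormones to amino acids, rose by 3.05 and 1.72, of 4 auxin genes tested and 11 named. GH3.17 passed the signal filter only through the NahG arrays, and without either of them 1 of 3 tested auxin genes rose. IAA29, a repressor of auxin responses, had a difference of -1.25 whose call was lost without either NahG array (limma adjusted p = 0.149 and 0.116), and it did not pass the signal filter without a green array.

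At stage 6.0 NahG and wild type differed at 1110 of 12184 probe sets, 9.11% of those tested, with 440 higher and 670 lower in NahG. This fit shares the NahG arrays with the comparison above. The next genes were picked by their levels in all 3 groups, so they are described without a test. Among 1849 called genes present in both fits, 210 that rose and 161 that fell had an ageing wild type mean within 0.5 (log2) of the green mean. The share of all genes with so small a wild type difference was not computed, so these counts are not read as many or few. Of those with a known name, PDF1.4 and PR-1-LIKE, a member of the pathogenesis-related family 1, rose most. PR-1-LIKE had 504.8 and 341.4 in NahG, 37.7 and 22.6 in green and 24.4 and 28.8 in ageing wild type leaves. AT2G19970 had 268.9 and 319.7 in NahG and at most 1.51 on every wild type array. AT4G17470 had 570.4 and 311.6 against at most 12.9, and AT3G27400 had 1060 and 696.8 against at most 86.3. PR-1-LIKE, AT2G19970 and AT4G17470 passed the signal filter of the main comparison only through the NahG arrays. Their entry into that test already required a high NahG signal. AT5G03350 was the clearest opposite case, at 1.51 and 0.906 in NahG and between 1325 and 2460 on the 4 wild type arrays. AT1G19960 had 9.17 and 18.6 in NahG against 616.4 or more in wild type, and AT4G29480 had 13.0 and 15.7 against 351.2 or more. AT1G13470 had 1.41 and 1.11 in NahG and between 95.0 and 196.9 in wild type. For these genes the NahG arrays stood apart from wild type leaves of either age.

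Other genes changed in ageing wild type leaves but lay within 0.5 (log2) of the green mean in NahG. In all, 3833 genes lay that close in NahG, whether or not they changed in ageing wild type. Those described had the largest wild type changes among them. UGT73D1, a glycosyltransferase gene, had 97.1 and 70.1 in ageing wild type, 2.92 and 3.12 in NahG and 7.46 and 2.72 in green leaves. AT3G13950 had 432.9 and 440.4 in ageing wild type against 56.9 and 99.2 in NahG and 108.4 and 37.5 in green leaves. AT1G51890, AT1G13340, AT3G57950 and AT2G18690 had the same order, with no overlap between ageing wild type and the other groups. In the other direction, AT4G24780 had 47.7 and 44.0 in ageing wild type, 606.6 and 327.3 in NahG and 695.9 and 406.9 in green leaves. AT1G04680 had 48.6 and 42.5 against 466.1 and 219.9 in NahG and 254.1 and 229.7 in green leaves. AT2G14900 had 10.9 and 6.24 against 94.9 and 79.6 in NahG. Closeness to the green mean did not hold on every array. The NahG difference from green leaves passed the threshold without the Col-0 array for AT3G13950 (0.78), AT1G13340 (0.95) and AT2G18690 (1.12), and without NahG array 2 for AT1G04680 (0.90). AT3G16530 moved both ways. Its green arrays had 1623 and 572.8, and its NahG difference of 0.04 was 0.78 without the Col-0 array and -0.70 without the Col-5 array, each past the threshold.

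**Figure D4:**
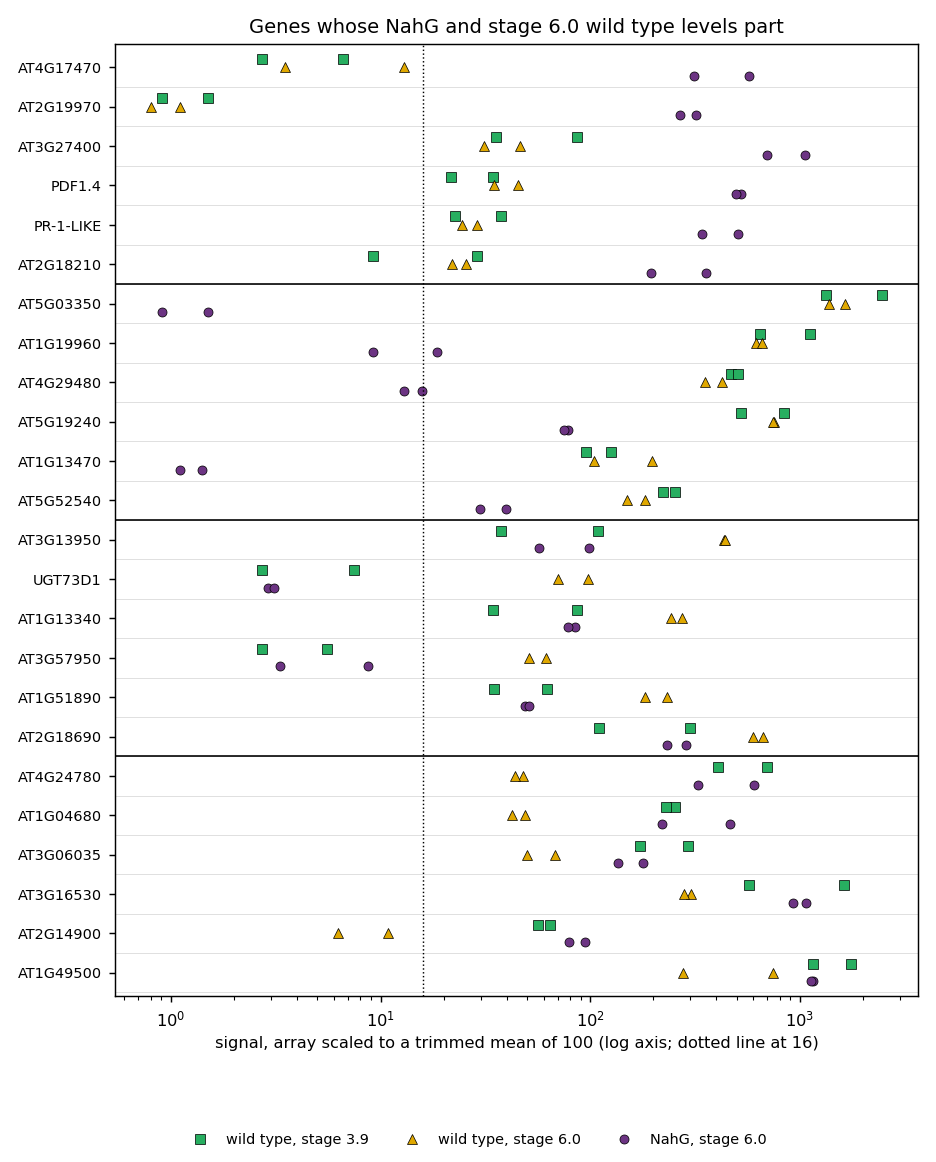
Signals of 24 genes on each array are shown on a logarithmic axis, with green squares for wild type at stage 3.9, yellow triangles for wild type at stage 6.0 and purple circles for NahG at stage 6.0, 2 arrays each. From top to bottom, blocks of 6 hold genes picked as higher in NahG than in both wild type groups, lower in NahG than in both, higher in ageing wild type than in both other groups, and lower in ageing wild type than in both.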

How the data were processed

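RNA of 10 leaf samples was measured on Affymetrix arrays, and the 2 NahG and 2 stage 3.9 wild type arrays form the comparison. Per the submitters' processing notes the deposited intensity values are MAS5 signals, and no version of that program was found in the sources used here. The authors' table holds linear signals with no detection calls. After 64 control probe sets were dropped, arrays were brought to a common 2% trimmed mean of 100. Probe sets at 50 or more on at least 2 of 8 arrays (NahG, ein2 and coi1 at stage 6.0, wild type at stage 3.9) were kept, which can drop genes that 1 group expresses. log2(signal + 16) was fitted with limma 3.58.1 (lmFit, eBayes with trend) in R 4.3.3 over 4 groups (4 residual degrees of freedom, 6.15 from the prior), and p-values were adjusted by Benjamini-Hochberg. The ein2 and coi1 arrays share only in the spread. The fits that include wild type at stage 6.0 used all 10 arrays and 12184 probe sets. The median standard error of a difference was 0.21, which groups of 2 arrays set.

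In simulated data 200 of 11972 probe sets were changed. The comparison recovered 26.5% of changes of log2 1 and 90% of changes of log2 2, with 3.64% and 5.76% false calls. The data themselves gave 3775 calls, which the simulation does not match, so these shares need not hold for them. Genes were named from the platform's annotation of probes, updated through a TAIR10.1 gene table used for names only. Of the probe sets 13513 name 1 gene, 503 several and 8730 none, and where several name 1 gene the brightest was used. The members and lists were chosen with earlier results of these data known, and some list patterns were corrected after the matched gene names were seen. Named genes are the 12 highest and 12 lowest calls without overlap between groups, up to 3 calls per list, 14 fixed genes, 6 genes each way in each of the classes set against ageing wild type, and further genes from the 30 highest and 30 lowest such calls among nuclear genes with a symbol, chosen after their values were seen. The text leaves some of these out. Alternatives were other filters (none, or 100), other added constants (1 or 64), quantile normalization, signals as deposited, scaling to 18 hybridisation controls, all 10 arrays, only the 4 arrays compared, no trend, and each array left out. Leaving out an ageing wild type array was added after seeing the data. Figures were drawn with python 3.11.15 and matplotlib 3.10.9.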

Additional observations from a re-analysis of the deposited data

How the results depend on the processing

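No paired analysis was possible because the green wild type arrays carry line names and no replicate numbers that match those of the NahG arrays. With 1 array left out, the counts of rises and falls against green wild type ran from 1165 to 1814 and from 1242 to 1541, and the count of differences between NahG and wild type at stage 6.0 ran from 432 to 743. Under the other settings the rises ran from 1415 to 1934. The falls stayed within 1.5 times of the reported count under every other setting but the scaling to the hybridisation controls, where 260 fell and 1843 rose (87.6% of calls were rises, against 50.2%), and 419 probe sets differed between NahG and wild type at stage 6.0. Of 137 named genes called against green wild type, 32 lost the call under that scaling, 3 with only the 4 arrays compared, 20 on leaving out at least 1 of the 4 arrays and 11 under any of the remaining settings. Genes that failed the signal filter under a setting were not counted as losses, so these counts can be too low. BSMT1 without a NahG array and EXPA8 without a green array are such cases. ALDH3F1 changed sign under the scaling to the controls (0.03), and AT3G16530, not called, was 0.78 without the Col-0 array and -0.70 without the Col-5 array. With no signal filter 4 autophagy genes rose, and 5 plastid genes of photosynthetic complexes fell, as with quantile normalization. The cause of these shifts was not tested. Signals near or below the added 16 limit the size of any fold, and with 2 arrays a group changes of 2-fold are often missed.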

Other observations

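Further genes were taken from the 30 highest and 30 lowest calls among nuclear genes with a symbol whose groups do not overlap. They were chosen after their values were seen and belong to no list. PAP20, a purple acid phosphatase, had 302.5 and 311.2 in NahG against 5.04 and 1.92 in green leaves, a log2 difference of 4.06 ± 0.23 (SE; limma adjusted p = 1.79e-06). ChiC, a chitinase, rose by 3.07, and HIS1-3, a linker histone of drought-stressed plants, rose by 3.04. Ageing wild type had 265.4 and 179.9 for PAP20, 158.7 and 112.9 for ChiC and 1028 and 1010 for HIS1-3. QQS, a gene that influences starch content, had 282.6 and 434.6 in NahG, 36.5 and 95.4 in green and 91.1 and 109.5 in ageing wild type leaves. ATPMEPCRB, a pectin methylesterase, had 444.8 and 241.6 in NahG against at most 81.5 on any array of either wild type group.

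Among the decreases were genes whose ageing wild type signals also lay above those of NahG. RING1, a ubiquitin ligase of programmed cell death, had 326.3 and 277.8 in NahG, 1759 and 1019 in green and 1249 and 1004 in ageing wild type leaves (-2.10 ± 0.26 against green; limma adjusted p = 0.000223). SAL2, a relative of the phosphatase SAL1, fell by 1.98 and ECS1, a cell wall protein, by 1.97. ATERDJ3B, a chaperone of the endoplasmic reticulum, had 145.1 and 99.0 in NahG against 515.1 and 478.9 in green leaves and 468.9 and 845.1 in ageing wild type, and its call was lost on the scale of the hybridisation controls (limma adjusted p = 0.0613). CHI, annotated here under locus AT2G43570, had 266.5 and 239.6 in NahG, 1483 and 555.5 in green and 1804 and 1773 in ageing wild type leaves. Its difference from green leaves was -1.78 (limma adjusted p = 0.00857), or -1.09 without the Col-0 array and -2.48 without the Col-5 array, and the call was lost without NahG array 2 (adjusted p = 0.0602) and on the scale of the hybridisation controls (adjusted p = 0.0609).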
